A study of Mus musculus with 14 samples.

Results

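The fibrillar collagens are the collagens that assemble into the banded fibrils of scar and connective tissue. The 7 genes described here are Col1a1 and Col1a2 (type I), Col3a1 (type III), Col5a1, Col5a2 and Col5a3 (type V) and Col11a1 (type XI). They were taken by name as the probe sets paired with exactly that 1 gene symbol, and each of the 7 had 1 such probe set, out of 19938 genes measured by a probe set of their own. Their messenger RNA was read from 14 Affymetrix gene arrays for mouse, 1 for each culture of primary hepatic stellate cells (HSCs) from BalbC mice (Balb/cByJ in the methods of the study). HSCs were purified on a density gradient, left to attach, washed, and kept on plastic in medium with fetal bovine serum, which all groups shared. Cells without valproic acid (VPA), an anticonvulsant that inhibits histone deacetylases, form the groups Ctrl4h, Ctrl16h and Ctrl64h, named for the hours in culture since washing. Cells given 2.5 mM VPA from that point on form the groups VPA4h and VPA64h. Every group has 3 arrays but Ctrl16h, which has 2. The samples of a group came from separate isolations. The earliest cells had already attached to plastic, so Ctrl4h is an early culture and not the cell in the liver, and uncultured cells were not analysed here.

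In healthy liver HSCs lie around the sinusoids and store vitamin A. When the liver is injured, and also when they are cultured on plastic, they turn into myofibroblasts, which make much of the fibrillar collagen of a fibrotic liver. Type I collagen, the bulk of the fibril, is wound from the chains of Col1a1 and Col1a2, and type III collagen from the chain of Col3a1 alone. Type V collagen is a minor component on which fibrils start and which limits their width. Its usual molecule combines the chains of Col5a1 and Col5a2, and Col5a3 gives a less common chain. Col11a1 encodes a chain of type XI collagen, the counterpart of type V in cartilage.

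Values are log2 expression made with RMA, and each is given for the replicates of a group in their order. A gene is said to have risen or fallen when limma gave an adjusted p under 0.05 and the change was at least 2-fold, and a smaller change that passed the adjusted p alone is given as higher or lower. Levels of different genes are not compared, because probe sets differ in brightness. The median of the tested probe sets was between 6.34 and 6.41 on every array, and replicate arrays correlated at 0.987 to 0.992. Of 12 stellate cell markers, 10 or 11 lay above the median on every array of each group. The defining markers of other liver cells were mostly below it: in each group at most 2 of 8 hepatocyte markers, 2 of 10 Kupffer cell markers, 4 of 9 sinusoidal endothelial markers, 1 of 7 lymphocyte markers and 1 of 3 cholangiocyte markers lay above it on every array, but 3 or 4 of 8 markers of portal fibroblasts and mesothelial cells, which also make fibrillar collagen, did. In these bulk samples fewer cells of a type and less RNA per cell cannot be told apart.

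How did the genes change as HSCs were cultured? Between 4 h and 64 h without VPA, 4 of the 7 genes rose and none fell, while 10.4% of the 23410 probe sets tested passed both limits (6.68% upwards). At the adjusted p alone 6 of the 7 genes differed, against 56.7% of all probe sets. For 5 of the 7 all 64 h arrays lay above the 4 h arrays (27.2% of all probe sets), and for 1 below them (34.6%). The genes that rose were Col5a2, 5.09-fold, Col3a1, 2.84-fold, Col1a1, 2.42-fold, and Col1a2, 2.19-fold. Col5a1 was slightly higher, Col5a3 was lower, and Col11a1 showed no difference that passed the test. The median change of the 7 genes was 1.13 on the log2 scale, against -0.09 over all probe sets tested. These values are relative to the array as a whole. Centring each array on the median of 10 housekeeping genes shifted every log2 change between Ctrl4h and Ctrl64h by -0.69, and centring on a probe set of Gapdh, which its pseudogenes share, shifted it by -0.56. The 10 housekeeping genes were not stable themselves. Uncentred, 2 of them rose and 1 fell, with a median change of 0.27, and after their own centring that median was -0.42. Centring on the median of the probe sets tested on each array kept all 4 rises. With housekeeping or Gapdh centring Col5a2 was the only gene past both limits upwards. Col1a1, Col1a2 and Col3a1 stayed higher with an adjusted p under 0.05, and Col5a3 fell by 1.31 and by 1.18. Of the 23410 probe sets, 415 rose and 6326 fell with housekeeping centring, and 525 rose and 3928 fell with Gapdh. The plot of values by array shows all 7 genes.

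**Figure D1:**
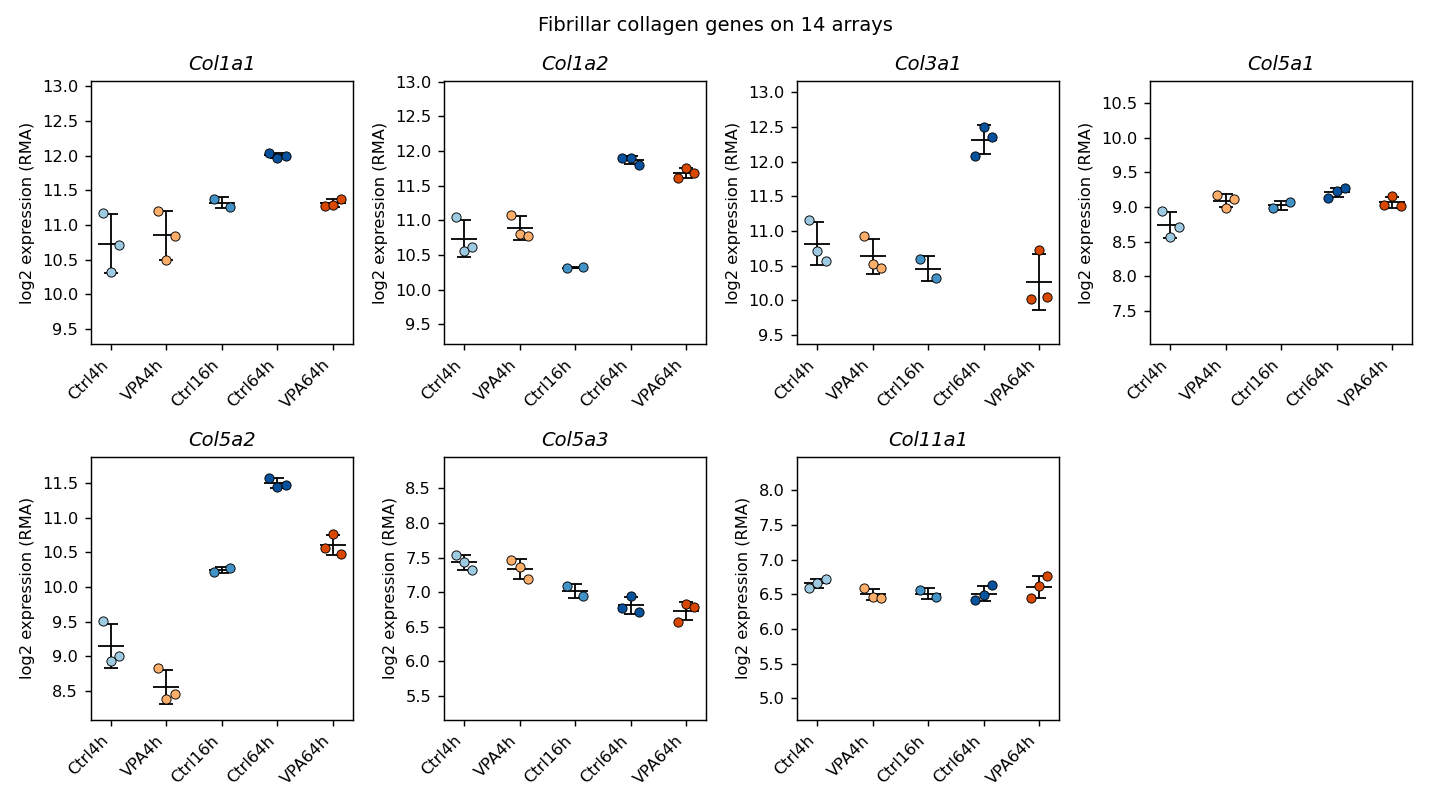
Log2 expression (RMA) of the 7 fibrillar collagen genes, 1 panel a gene, with a point for each array and the mean and SD of each group as bars (n = 3, for Ctrl16h n = 2). The panels span the same number of log2 units. Col5a2 is between 11.44 and 11.58 in Ctrl64h against 8.93 to 9.51 in Ctrl4h, and Col3a1 in VPA64h lies between 10.02 and 10.72, below every Ctrl64h array.

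The type I genes ended at similar gains by different routes. Col1a1 was at 11.17, 10.32 and 10.71 in Ctrl4h, at 11.38 and 11.26 in Ctrl16h, and at 12.04, 11.97 and 12.003 in Ctrl64h. Every 16 h array lay above every 4 h array and below every 64 h array. Between 4 h and 64 h the rise was 1.27 ± 0.18 (SE) on the log2 scale, with a limma adjusted p of 1.54e-05. The step from 4 h to 16 h was 0.59 ± 0.20 (adjusted p = 0.0465) and that from 16 h to 64 h 0.69 ± 0.20 (adjusted p = 0.0107), each under 2-fold. The first of these steps missed the adjusted p in 10 of 14 alternative settings (range 0.00394 to 0.495), among them those without Ctrl4h replicate 2 or 3 or without either Ctrl16h array. The second missed it in 2 of 14, with centring on housekeeping genes and without Ctrl16h replicate 2 (limma adjusted p up to 0.0921).

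Col1a2 was at 11.04, 10.56 and 10.61 in Ctrl4h, at 10.32 on both arrays of Ctrl16h, and at 11.90, 11.89 and 11.80 in Ctrl64h. The 16 h arrays were below all the others. Ctrl16h was lower than Ctrl4h by a log2 difference of -0.42 ± 0.13 (SE, limma adjusted p = 0.0332), and this passed the adjusted p in 9 of 14 alternatives, with a range of 3.95e-05 to 0.157. It was lost without Ctrl4h replicate 1, without either Ctrl16h array, over all probe sets of the table and in a fit of only these groups. From 16 h to 64 h Col1a2 rose by 1.55 ± 0.13 (adjusted p = 2.1e-07), and over the whole culture by 1.13 ± 0.12 (adjusted p = 7.07e-07).

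The relation between the chains of type I collagen can be followed on single arrays, where a shift of all log2 values of an array cancels. The log2 value of Col1a1 minus that of Col1a2 was 0.13, -0.24 and 0.10 in Ctrl4h, 1.06 and 0.94 in Ctrl16h, and 0.14, 0.08 and 0.21 in Ctrl64h. Both 16 h arrays stood apart from the other times, with a mean difference that was 1.01 above that of Ctrl4h. This comparison was added after the values had been seen, and 2 arrays against 3 cannot go below p = 0.2 in the exact two-sided permutation test used here, which is the value it gave. Between 4 h and 64 h the arrays overlapped, with a change of 0.14 (exact permutation p = 0.4, adjusted over 20 such comparisons 0.444).

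Col3a1 was at 11.16, 10.70 and 10.57 in Ctrl4h, at 10.59 and 10.32 in Ctrl16h, and at 12.09, 12.50 and 12.36 in Ctrl64h. The 4 h and 16 h arrays overlapped, and the difference of -0.36 did not pass the test (limma adjusted p = 0.304). From 16 h to 64 h Col3a1 rose by 1.86 ± 0.22 (SE, adjusted p = 5.36e-06), and between 4 h and 64 h by 1.504 ± 0.193 (adjusted p = 6.76e-06). In this pattern, with the gain after 16 h, it was like Col1a2 and unlike Col5a2.

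Of the type V genes, Col5a2 was the one that had risen by 16 h. It was at 9.51, 8.93 and 9.01 in Ctrl4h, at 10.22 and 10.28 in Ctrl16h and at 11.58, 11.44 and 11.47 in Ctrl64h, and the groups did not overlap. The rise was 1.10 ± 0.16 (SE) from 4 h to 16 h (limma adjusted p = 0.000131), 1.25 ± 0.16 from 16 h to 64 h (adjusted p = 1.37e-05) and 2.35 ± 0.14 over both (adjusted p = 1.74e-09). It was the 1 gene of the 7 called between 4 h and 16 h, where 1.91% of all probe sets were, and 3 of the 7 (Col1a2, Col3a1 and Col5a2) were called between 16 h and 64 h, where 6.6% were. At the adjusted p alone 4 of the 7 differed in each of these steps, against 20.1% and 43.1% of all probe sets. Without Ctrl4h replicate 2 the early change of Col5a2 was 0.99, just under 2-fold, with an adjusted p of 0.000812 (range over 14 alternatives 4.03e-06 to 0.0058). It was also under 2-fold with centring on housekeeping genes, at 0.72, and on Gapdh, at 0.68. The step of Col5a2 from 16 h to 64 h was 0.94 with housekeeping centring, which left 2 of the 7 genes called there.

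Col5a1, whose chain joins that of Col5a2 in the same molecule, moved little. It was at 8.94, 8.56 and 8.71 in Ctrl4h, at 8.98 and 9.07 in Ctrl16h, and at 9.14, 9.23 and 9.27 in Ctrl64h. The 64 h arrays were all above the 4 h arrays, by a log2 difference of 0.47 ± 0.10 (SE, limma adjusted p = 0.000623), but the sign turned to -0.22 when arrays were centred on housekeeping genes and to -0.08 on the Gapdh probe set.

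Col5a3 went the other way. It was at 7.53, 7.44 and 7.32 in Ctrl4h, at 7.09 and 6.95 in Ctrl16h, and at 6.77, 6.95 and 6.72 in Ctrl64h, so all 64 h arrays were below the 4 h arrays. The log2 difference between 4 h and 64 h was -0.62 ± 0.10 (SE, limma adjusted p = 8.91e-05), under 2-fold, and it was lower under every alternative tried. Between 52.6% and 68.8% of all probe sets tested were dimmer than Col5a3 on the same array, and between 50.6% and 56.5% were dimmer than Col11a1. Col11a1 lay between 6.41 and 6.76 on all 14 arrays, and its change from 4 h to 64 h was -0.15 with a 95% interval of -0.35 to 0.05 (adjusted p = 0.194). A probe set that lies near the middle of the array may sit close to background, which the deposited values do not show.

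**Figure D2:**
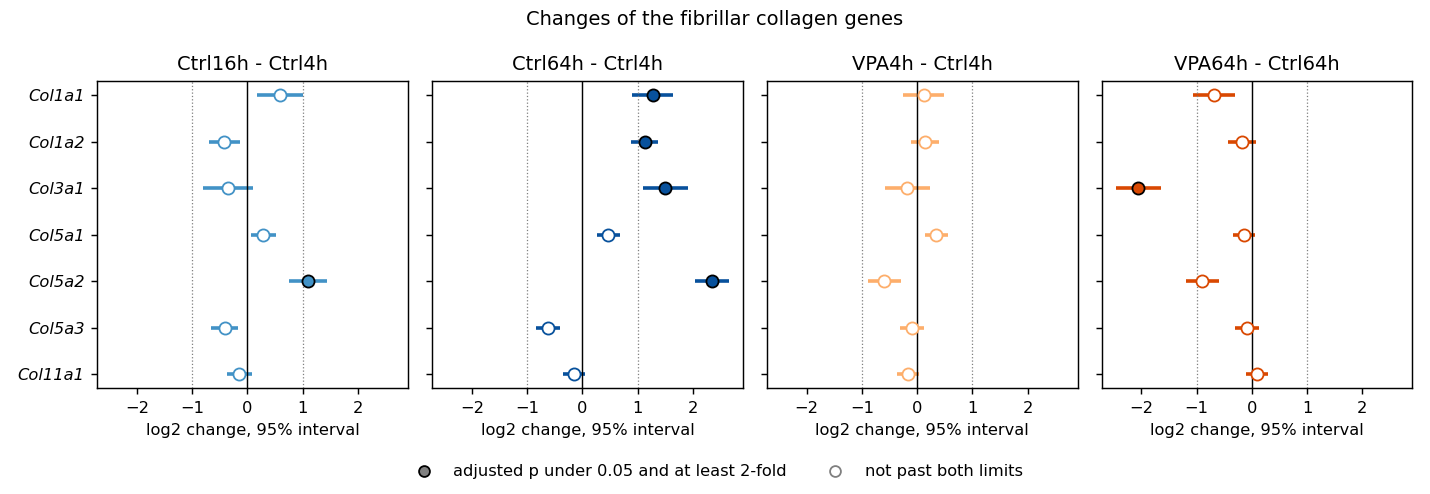
Log2 change of each fibrillar collagen gene in 4 comparisons, with its 95% interval from the fit of all 14 arrays. Filled points passed an adjusted p of 0.05 and a 2-fold change (dotted lines), namely Col5a2 at 16 h, Col1a1, Col1a2, Col3a1 and Col5a2 at 64 h, and Col3a1 with VPA at 64 h. Centred on housekeeping genes or Gapdh, Col5a1 at 64 h turns below 0.

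What did VPA do to these genes? After 4 h none of the 7 passed both limits, while 1.42% of all probe sets did. At the adjusted p alone, which 21.4% of all probe sets passed, Col5a2 was lower and Col5a1 higher with VPA. Col5a2 was at 8.84, 8.38 and 8.46 in VPA4h, below the 3 arrays of Ctrl4h, with a log2 difference of -0.59 ± 0.14 (SE, limma adjusted p = 0.00588). Col5a1 was at 9.17, 8.99 and 9.11 in VPA4h, above the 3 arrays of Ctrl4h, with a difference of 0.35 ± 0.10 (adjusted p = 0.0143). That of Col5a1 lost the adjusted p in 4 of 16 alternatives, which were the centring on housekeeping genes, that on Gapdh, and leaving out Ctrl4h replicate 2 or VPA4h replicate 1 (range 0.00277 to 0.896). The changes of the other 5 genes lay between -0.18 and 0.15. Replicate 1 gave the highest of the 3 values in both groups at 4 h for 6 of the 7 genes, all but Col11a1. Within the same-numbered pairs, VPA minus control at 4 h was 0.03, 0.19 and 0.13 for Col1a1, 0.04, 0.24 and 0.16 for Col1a2, -0.24, -0.19 and -0.11 for Col3a1 and -0.07, -0.08 and -0.13 for Col5a3. Each of these 4 genes kept 1 sign in its 3 pairs although the arrays of the groups overlapped. With the replicate number as a block within each time, their limma adjusted p ran from 0.247 to 0.525, and no call with VPA changed.

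After 64 h 1 of the 7 genes, Col3a1, fell with VPA and none rose, while 2.14% of all probe sets were called (1.14% downwards). Col1a1 and Col5a2 were lower by less than 2-fold, and Col1a2, Col5a1, Col5a3 and Col11a1 had no difference past the test. At the adjusted p alone 3 of the 7 differed, against 24% of all probe sets, and all 3 were lower, as were 11.2%. The VPA64h arrays of 4 of the 7 genes lay wholly below those of Ctrl64h, as did those of 17.6% of all probe sets. The arrays of Ctrl64h also serve in the comparison with Ctrl4h, so the 2 comparisons are not independent. The median change was -0.18, against 0.00 over all probe sets.

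Col3a1 was at 10.02, 10.72 and 10.04 in VPA64h against 12.09, 12.50 and 12.36 in Ctrl64h. The highest treated array was well below the lowest control array, and Col3a1 fell by 2.06 ± 0.19 (SE) on the log2 scale, which is 4.16-fold (limma adjusted p = 1.68e-06). The treated cells were also lower than Ctrl4h by a log2 difference of -0.55 ± 0.19 (adjusted p = 0.0234), but the arrays overlapped and this did not hold in 5 of 15 alternatives, with adjusted p between 1.96e-06 and 0.118, among them those without Ctrl4h replicate 1, VPA64h replicate 1 or VPA64h replicate 3. In order of its mean level, VPA64h, Ctrl16h, VPA4h and Ctrl4h came first, with no neighbours that passed the test of their difference, and Ctrl64h stood above them all.

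The type I genes gave smaller differences, though how far they differ from Col3a1 was not tested. Col1a1 was at 11.28, 11.30 and 11.38 in VPA64h, below all 3 Ctrl64h arrays, with a log2 difference of -0.69 ± 0.18 (SE, limma adjusted p = 0.00927), a level that differed from that of Ctrl16h by less than 0.01. Col1a2 was at 11.61, 11.75 and 11.69 in VPA64h. These too were below the 3 Ctrl64h arrays, but the difference of -0.18 ± 0.12 did not pass the test (adjusted p = 0.304), and its 95% interval ran from -0.43 to 0.07. In order of level, Col1a2 was lowest in Ctrl16h, then in Ctrl4h and VPA4h, which did not differ past the test, and highest in VPA64h and Ctrl64h, which did not either.

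On single arrays Col1a1 minus Col1a2 was -0.33, -0.45 and -0.31 in VPA64h. All 3 were below the Ctrl64h arrays, with a change in the difference of -0.50 (exact two-sided permutation p = 0.1, the smallest that 3 arrays against 3 allow, adjusted 0.167). After 4 h of VPA this difference changed by -0.03, and the arrays overlapped.

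Col5a2 was at 10.57, 10.76 and 10.48 in VPA64h, below Ctrl64h and above Ctrl4h. Its log2 difference from Ctrl64h was -0.89 ± 0.14 (SE), or 1.86-fold lower (limma adjusted p = 0.000265), and its difference from Ctrl4h was 1.45 ± 0.14 (adjusted p = 3.73e-07). It was the 1 gene of the 7 past both limits between Ctrl4h and VPA64h, as 9.47% of all probe sets were, and 6 of the 7 passed the adjusted p, as 57% did. That call was lost with centring on housekeeping genes (0.67) and on Gapdh (0.77), where Col3a1 (-1.34 and -1.23) and Col5a3 (-1.49 and -1.38) fell instead. Under these centrings 8868 and 6194 of the 23410 probe sets tested fell between Ctrl4h and VPA64h. Col5a2 rose in the presence of VPA from 4 h to 64 h by 2.04 ± 0.14 (adjusted p = 1.18e-08). It was the 1 of the 7 genes called between VPA4h and VPA64h, where 7.55% of all probe sets were, and 4 of the 7 passed the adjusted p, as 50.4% did. Col1a2 was higher by 0.80 ± 0.12 (adjusted p = 3.69e-05) between the same groups, Col1a1 by 0.47 ± 0.18 (adjusted p = 0.0371), and Col5a3 was lower, by a log2 difference of -0.61. The value for Col1a1 missed the adjusted p in 10 of 15 alternatives, which ran up to 0.581 and included the fits without VPA4h replicate 2 or 3 or any 1 of the VPA64h arrays, and turned to -0.24 with centring on housekeeping genes, where that of Col1a2 was 0.09 (adjusted p = 0.439).

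The other members of type V and type XI were little affected at 64 h. Col5a1 was at 9.03, 9.16 and 9.02 in VPA64h and its difference from Ctrl64h was -0.14, with a 95% interval of -0.35 to 0.06. Col5a3 was at 6.57, 6.82 and 6.79, a difference of -0.08 with an interval of -0.30 to 0.13. Col11a1 was at 6.44, 6.62 and 6.76, a difference of 0.10 with an interval of -0.10 to 0.30. For all 3 genes the treated and control arrays overlapped.

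The effect of VPA itself was compared between the times. The effect at 64 h minus that at 4 h was -1.88 ± 0.27 (SE) for Col3a1 (limma adjusted p = 0.000213), past both limits, as it was for 2.59% of all probe sets. It was -0.80 ± 0.25 for Col1a1 (adjusted p = 0.0386) and -0.49 ± 0.14 for Col5a1 (adjusted p = 0.0209), so that 3 of the 7 passed the adjusted p, against 15.9% of all probe sets. For Col5a2, lower with VPA at both times, the difference of -0.30 ± 0.20 did not pass (adjusted p = 0.383), and for Col1a2 it was -0.33 ± 0.17 (adjusted p = 0.223). The result for Col1a1 missed the adjusted p in 13 of 21 alternatives (range 0.000518 to 0.129), which included leaving out any 1 of 10 of the 12 arrays involved. That for Col5a1 missed it in 4 of 21 (0.00519 to 0.275), with centring on Gapdh and without Ctrl4h replicate 2, VPA4h replicate 1 or Ctrl64h replicate 3, and that for Col3a1 kept both limits in all 21.

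The summed level of the 8 portal fibroblast and mesothelial markers differed between these groups. On the log2 scale it was 9.66 to 10.03 in Ctrl4h, 10.11 to 10.46 in Ctrl64h and 10.58 to 11.15 in VPA64h. A sum follows its brightest members, and between Ctrl4h and Ctrl64h the median change of the 8 was -0.17, with 2 higher and 3 lower at the adjusted p. Named after their values were seen, Fbln2 rose between Ctrl4h and Ctrl64h, by 1.28 ± 0.20 (SE, limma adjusted p = 5.39e-05), and Thy1 and Cd34 rose with VPA at 64 h, by 1.36 ± 0.10 (adjusted p = 1.56e-07) and 1.71 ± 0.18 (adjusted p = 5.39e-06). With housekeeping centring none of the 8 rose and 3 fell between Ctrl4h and Ctrl64h, and with Gapdh none rose and 1 fell. Of the 23410 probe sets, 6326 and 3928 fell there under these centrings. With VPA at 64 h 2 rose under each, as without centring, where 2.14% of all probe sets were called and the median change of the 8 was 0.07. With VPA at 64 h this sum was higher where Col3a1, Col1a1 and Col5a2 were lower, and its part in their changes was not tested. The summed level of the 12 stellate cell markers was 14.49 to 14.56 in Ctrl4h, 13.92 to 13.99 in Ctrl64h and 13.74 to 13.83 in VPA64h. Its members were mixed: between Ctrl4h and Ctrl64h 2 rose and 4 fell, with a median change of -0.21, while 10.4% of all probe sets were called.

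Col3a1 and Col5a2 are neighbours on mouse chromosome 1, with no other gene of the reference annotation starting between them, so their differing time courses are those of adjacent genes. Col3a1 minus Col5a2 on the same array was 1.65, 1.77 and 1.56 in Ctrl4h, 0.37 and 0.05 in Ctrl16h, and 0.51, 1.06 and 0.89 in Ctrl64h. It was 2.09, 2.14 and 2.00 in VPA4h and -0.55, -0.04 and -0.44 in VPA64h. Without VPA the difference was lowest at 16 h, where both arrays lay below those of 64 h. Between 4 h and 64 h Col5a2 gained on its neighbour by 0.84, and by a further 1.16 with VPA at 64 h. At 4 h VPA shifted the difference by 0.41 the other way. The groups of each of these 3 comparisons did not overlap (exact two-sided permutation p = 0.1 for each, the smallest possible, adjusted 0.167).

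Col5a2 also gained on Col5a1, its partner in type V collagen, during culture. Col5a1 minus Col5a2 was -0.57, -0.37 and -0.30 in Ctrl4h, -1.24 and -1.21 in Ctrl16h, and -2.44, -2.22 and -2.20 in Ctrl64h. With VPA it was 0.33, 0.61 and 0.65 at 4 h and -1.54, -1.60 and -1.46 at 64 h. No groups overlapped: the difference changed by -1.87 between Ctrl4h and Ctrl64h, and VPA moved it by 0.94 at 4 h and 0.75 at 64 h (exact two-sided permutation p = 0.1 for each, adjusted 0.167). Col5a1 minus Col5a3 changed by 1.09 between Ctrl4h and Ctrl64h, again with no overlap, and by -0.06 with VPA at 64 h, where the arrays overlapped (exact permutation p = 0.6, adjusted 0.6). Because these are differences within an array, a shift of all log2 values of an array does not alter them.

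**Figure D3:**
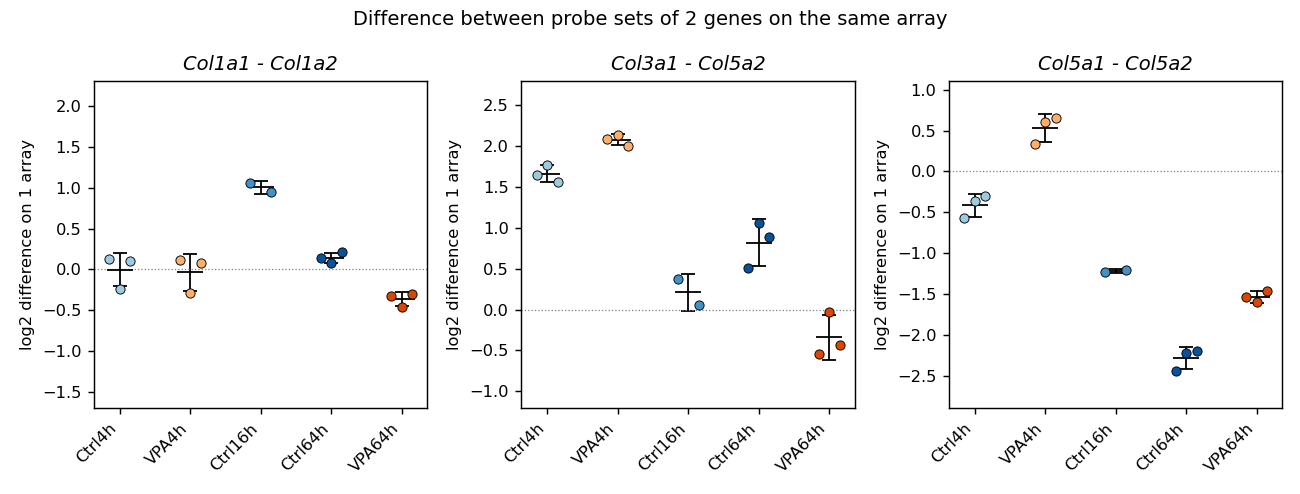
Log2 value of 1 gene minus that of another on the same array, for 3 pairs of fibrillar collagen genes, with a point for each array and the mean and SD of each group (n = 3, for Ctrl16h n = 2). The zero has no meaning as an equal level, since probe sets differ in brightness. Col1a1 minus Col1a2 is 1.06 and 0.94 in Ctrl16h and at most 0.21 on every other array.

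The sequences just upstream of these genes are shown for Col1a2 and Col3a1, which both gained after 16 h but of which only Col3a1 passed both limits with VPA, and for Col5a1, which changed little. Each is the 250 bases before the start of the RefSeq transcript in GRCm38.p6, written 5′ to 3′ on the strand of the gene. The windows are chr6:4505368-4505617 (+) for Col1a2, chr1:45311288-45311537 (+) for Col3a1 and chr2:27886175-27886424 (+) for Col5a1. Capitals mark 3 motifs of promoters, searched on both strands: CCAAT, the letters bound by the factor NF-Y, GGGCGG, the GC box of Sp1, and TATAAA, the TATA box.
Col1a2: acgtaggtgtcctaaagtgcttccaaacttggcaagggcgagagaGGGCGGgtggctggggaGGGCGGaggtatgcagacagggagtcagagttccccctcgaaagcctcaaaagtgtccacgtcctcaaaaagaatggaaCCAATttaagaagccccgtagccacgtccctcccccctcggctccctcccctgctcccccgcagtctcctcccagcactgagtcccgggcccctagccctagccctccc
Col3a1: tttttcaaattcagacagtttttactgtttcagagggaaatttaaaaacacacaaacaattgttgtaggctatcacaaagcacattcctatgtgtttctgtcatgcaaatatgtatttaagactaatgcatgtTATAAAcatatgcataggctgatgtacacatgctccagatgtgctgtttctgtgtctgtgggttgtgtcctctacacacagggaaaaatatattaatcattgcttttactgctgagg
Col5a1: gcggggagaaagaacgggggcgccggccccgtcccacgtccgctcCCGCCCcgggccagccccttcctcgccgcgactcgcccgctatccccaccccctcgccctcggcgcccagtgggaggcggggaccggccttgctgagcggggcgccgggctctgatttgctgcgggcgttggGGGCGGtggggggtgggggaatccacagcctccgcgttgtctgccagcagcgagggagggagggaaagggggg

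The window of Col1a2 holds CCAAT, 109 to 105 bases before the start, and GGGCGG at 205 to 200 and at 188 to 183 bases before it. That of Col3a1 holds neither of these and has TATAAA at 117 to 112 bases before the start, and that of Col5a1 holds GGGCGG 73 to 68 bases before the start and, on the opposite strand, 205 to 200 bases before it. Of the 32851 promoters in the table, 33.8% held CCAAT in a window of this length, 32.7% GGGCGG and 12.4% TATAAA. The windows differ widely in composition. G and C made up 35.2% of that of Col3a1, a share that 5.4% of all promoters do not exceed, 62.0% of that of Col1a2 and 76.4% of that of Col5a1, which 97.2% do not exceed. The windows of Col5a3 and Col11a1 had 62.8% and 62.4%, and each held CCAAT once and GGGCGG at 2 places, so that 5 of the 7 genes had an entry. Col1a1 and Col5a2 had none. A match is a string of letters and not a measured site.

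Which other genes followed the same course? For each of the 4 genes whose group means spanned at least 1 log2 unit, the 3 closest probe sets were found by the root mean square difference of mean-centred log2 values over the 14 arrays. For Col1a2 all 3 were probe sets of Adamts9, a secreted metalloproteinase that cuts proteoglycans, at 0.08, 0.14 and 0.14, out of 6 probe sets with that symbol. The closest was at 8.77 ± 0.37 (SD, n = 3) in Ctrl4h, 8.40 ± 0.06 (n = 2) in Ctrl16h and 9.92 ± 0.06 (n = 3) in Ctrl64h, and at 8.92 ± 0.25 in VPA4h and 9.76 ± 0.08 in VPA64h (n = 3 each). It was picked for its likeness to Col1a2. Its lower mean at 16 h and its high mean with VPA at 64 h follow from that choice. So does its place closer to Col1a2 than Col1a1, which was at 0.43.

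For Col3a1 the closest were Podn, which encodes a small leucine-rich proteoglycan of the matrix, at 0.25, Slc24a3, a sodium, potassium and calcium exchanger, at 0.27, and Fbxo5, an inhibitor of the anaphase-promoting complex in the cell cycle, at 0.30. Podn was at 8.84 ± 0.42 (SD) in Ctrl64h and at 7.20 ± 0.35 in VPA64h, against 7.36 ± 0.15 in Ctrl4h (n = 3 each). For Col5a2 they were Anxa3, an annexin, at 0.19, Ddias at 0.24 and Lrrc27 at 0.28. Anxa3 was at 9.36 ± 0.14 (SD, n = 3) in Ctrl4h, at 10.41 ± 0.03 (n = 2) in Ctrl16h, and at 11.70 ± 0.05 (n = 3) in Ctrl64h, and at 11.08 ± 0.21 (n = 3) in VPA64h. For Col1a1 they were Zeb2os, a transcript antisense to Zeb2, at 0.18, Arhgap1 at 0.20, and Slc4a2, an anion exchanger, at 0.20. The likeness is a description over arrays that share their groups.

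**Figure D4:**
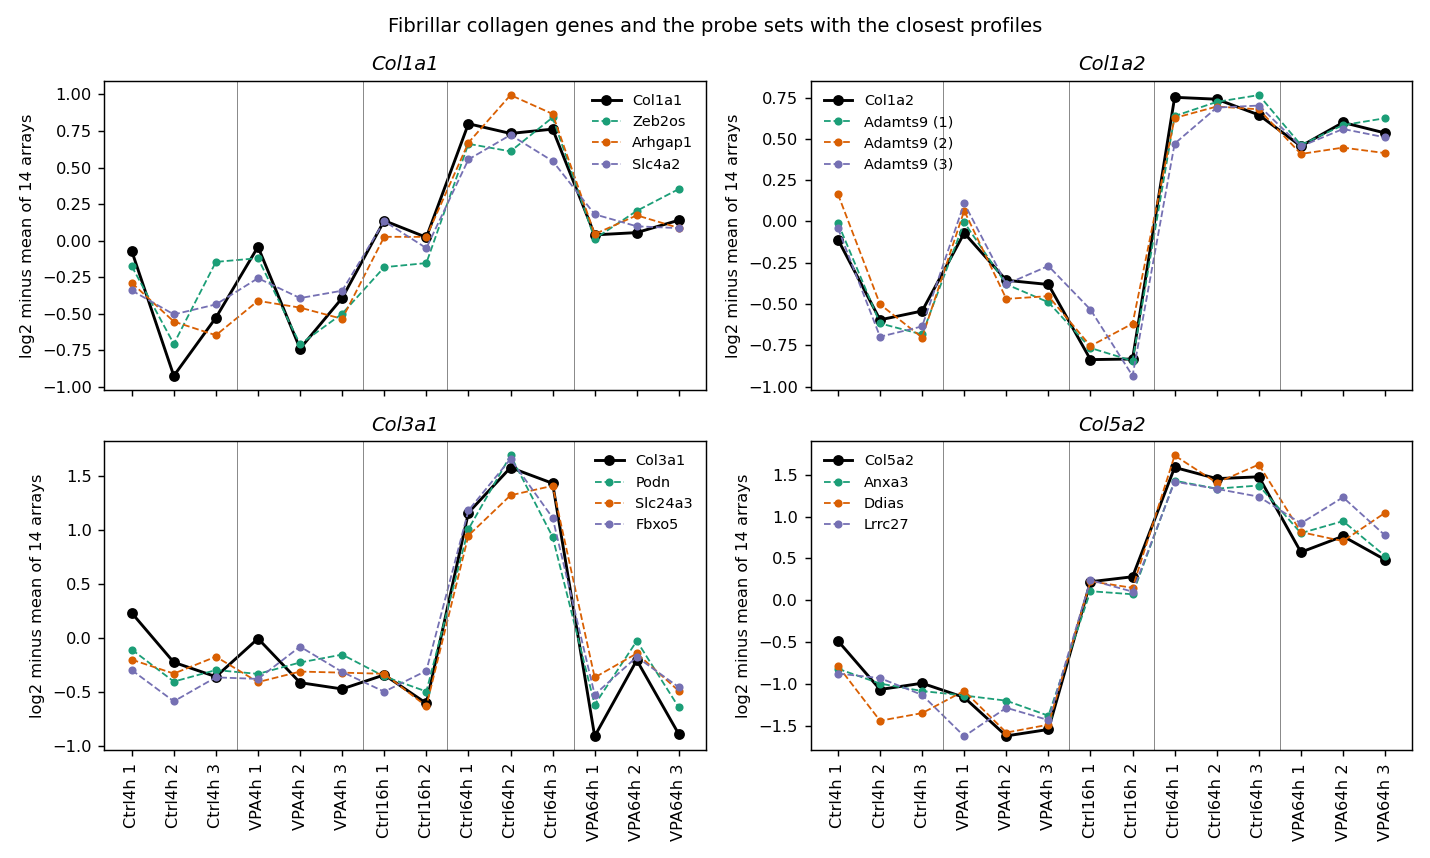
Log2 value minus the mean over the 14 arrays, by array, for the 4 fibrillar collagen genes with the widest range (black) and for the 3 single-symbol probe sets closest to each (coloured, dashed), with lines between groups. The 3 Adamts9 probe sets follow Col1a2 at 0.08 to 0.14 root mean square, and Podn follows Col3a1 at 0.25.

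The genes that process, export, join and break down fibrillar collagen were described from 9 lists. Of 19 measured genes that modify and fold procollagen, 9 rose and none fell between Ctrl4h and Ctrl64h, with a median of 0.89 on the log2 scale. Of all probe sets 6.68% rose and 10.4% were called in either direction, which is also the background for the culture counts of the lists that follow. The 9 included Fkbp14, a prolyl isomerase of the endoplasmic reticulum, by 2.50 ± 0.08 (SE, limma adjusted p = 5.44e-12), P4ha3 and P4ha1, subunits of prolyl 4-hydroxylase, by 1.67 and 1.51, and P3h2, a prolyl 3-hydroxylase, by 1.56. Centred on housekeeping genes, 1 of the 19, Fkbp14, still passed both limits upwards and 1 fell, with a median of 0.20, and centred on Gapdh 3 rose. Of the 23410 probe sets tested, 415 rose and 6326 fell with housekeeping centring, and 525 rose with Gapdh. With VPA at 64 h 1 of the 19 fell and none rose, beside 1.14% of all probe sets called downwards and 2.14% in all. That gene was P4ha3, at 7.18 ± 0.03 (SD) in Ctrl64h and 6.003 ± 0.260 in VPA64h (n = 3 each), by 1.18 ± 0.13 (SE, adjusted p = 1.11e-05). Fkbp14 differed by -0.08 at 64 h (adjusted p = 0.482), and after 4 h of VPA it rose by 1.06 (adjusted p = 1.3e-07). Serpinh1, the collagen chaperone HSP47, was lower with VPA at 64 h by a log2 difference of -0.79 ± 0.10 (adjusted p = 3.55e-05), and it is named after its value was seen.

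Of the 5 measured enzymes that cross-link collagen, 3 rose between Ctrl4h and Ctrl64h and none fell, and so they did under either centring. They were Lox, lysyl oxidase itself, by 3.43 ± 0.20 (SE, limma adjusted p = 1.18e-09), and its relatives Loxl4 by 2.29 and Loxl3 by 1.86. Lox was at 7.53 ± 0.52 (SD, n = 3) in Ctrl4h, 8.34 ± 0.26 (n = 2) in Ctrl16h and 10.96 ± 0.09 (n = 3) in Ctrl64h. In VPA64h it was at 9.23 ± 0.09 (n = 3), and so fell by 1.73 ± 0.20 (SE, adjusted p = 1.43e-05) from Ctrl64h. Like Col5a2, Lox was thus between Ctrl4h and Ctrl64h with VPA.

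Of 15 proteins that sit on fibrils or regulate them, 2 rose and 1 fell in culture, a share of calls that can be set against the 10.4% of all probe sets. Ogn, osteoglycin, rose by 3.46 ± 0.23 (SE, limma adjusted p = 3.62e-09), Col12a1, of a collagen that decorates fibrils, by 1.77 ± 0.18 (adjusted p = 6.25e-07), and Tnxb, tenascin X, fell by 1.35 ± 0.15 (adjusted p = 1.94e-06). With VPA at 64 h 1 rose and 1 fell, where 2.14% of all probe sets were called. Col14a1, of another fibril-associated collagen, was at 12.12 ± 0.14 (SD) in Ctrl4h and 12.11 ± 0.12 in Ctrl64h, and at 9.74 ± 0.24 in VPA64h (n = 3 each), and fell by 2.38 ± 0.12 with VPA (SE, adjusted p = 7.71e-09). Thbs2, a thrombospondin, rose by 1.03 ± 0.10 (adjusted p = 2.13e-06). Its change was under 2-fold when centred on housekeeping genes, at 0.93, and on Gapdh, at 0.90.

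For the other lists the culture counts stand beside 6.68% of all probe sets called upwards and 10.4% in all. In the list for export and mRNA binding 2 of 7 rose in culture. They were Tango2, which has no established part in procollagen export, by 1.40, and Sec23a, of the coat of vesicles leaving the endoplasmic reticulum, by 1.13. For propeptide cleavage 1 of 7 rose, Pcolce, which enhances the procollagen C-proteinase, by 1.25. Among collagen receptors 1 of 9 rose, the integrin subunit Itga1, by 1.45. For breakdown and its inhibitors 2 of 9 rose, the inhibitors Timp2 by 1.58 and Timp1 by 1.18, and 1 fell, the collagenase Mmp13, by 1.97 ± 0.41 (SE, limma adjusted p = 0.000741). Upward calls for Tango2, Sec23a, Pcolce, Itga1 and Timp1 were under 2-fold with either centring, and that of Timp2 with housekeeping centring, at 0.89. With housekeeping centring the breakdown list had none that rose and 3 that fell, beside 415 risen and 6326 fallen of the 23410 probe sets tested. With VPA at 64 h, where 2.14% of all probe sets were called, none of the genes of the export, cleavage and receptor lists passed both limits. Ctsk, the collagen-degrading cathepsin K, fell from 8.72 ± 0.23 (SD) to 6.86 ± 0.38 (n = 3 each), by 1.86 ± 0.15 (SE, adjusted p = 5.52e-07). None of the 4 other fibrillar collagen genes measured, Col2a1, Col11a2, Col24a1 and Col27a1, passed both limits in either comparison. With housekeeping centring 2 of these 4 fell between Ctrl4h and Ctrl64h, as did 6326 of the 23410 probe sets tested.

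Of 26 regulators of collagen gene transcription, 2 rose and 2 fell in culture, beside 6.68% of all probe sets upwards and 10.4% in all, with a median of -0.26. Mrtfa, a coactivator of serum response factor, rose by 1.75 ± 0.12 (SE, limma adjusted p = 4.29e-09), and the growth factor Tgfb3 by 1.36 ± 0.15 (adjusted p = 1.29e-06). Cebpb, a bZIP transcription factor, fell by 1.75 ± 0.12 (adjusted p = 8.49e-09), and Srf, serum response factor itself, by 1.00 ± 0.08 (adjusted p = 3e-08). Centred on housekeeping genes 1 of the 26 rose and 12 fell, beside 415 risen and 6326 fallen of the 23410 probe sets tested. Tgfb3 was then under 2-fold, at 0.67, as it was with Gapdh, at 0.80. Tgfb3 was the 1 regulator called with VPA at 64 h, at 11.41 ± 0.11 (SD) in Ctrl64h and 10.20 ± 0.37 in VPA64h (n = 3 each), and fell by 1.21 ± 0.15 (SE, adjusted p = 2.5e-05). Of all probe sets 2.14% were called in that comparison, 1.14% downwards.

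**Figure D5:**
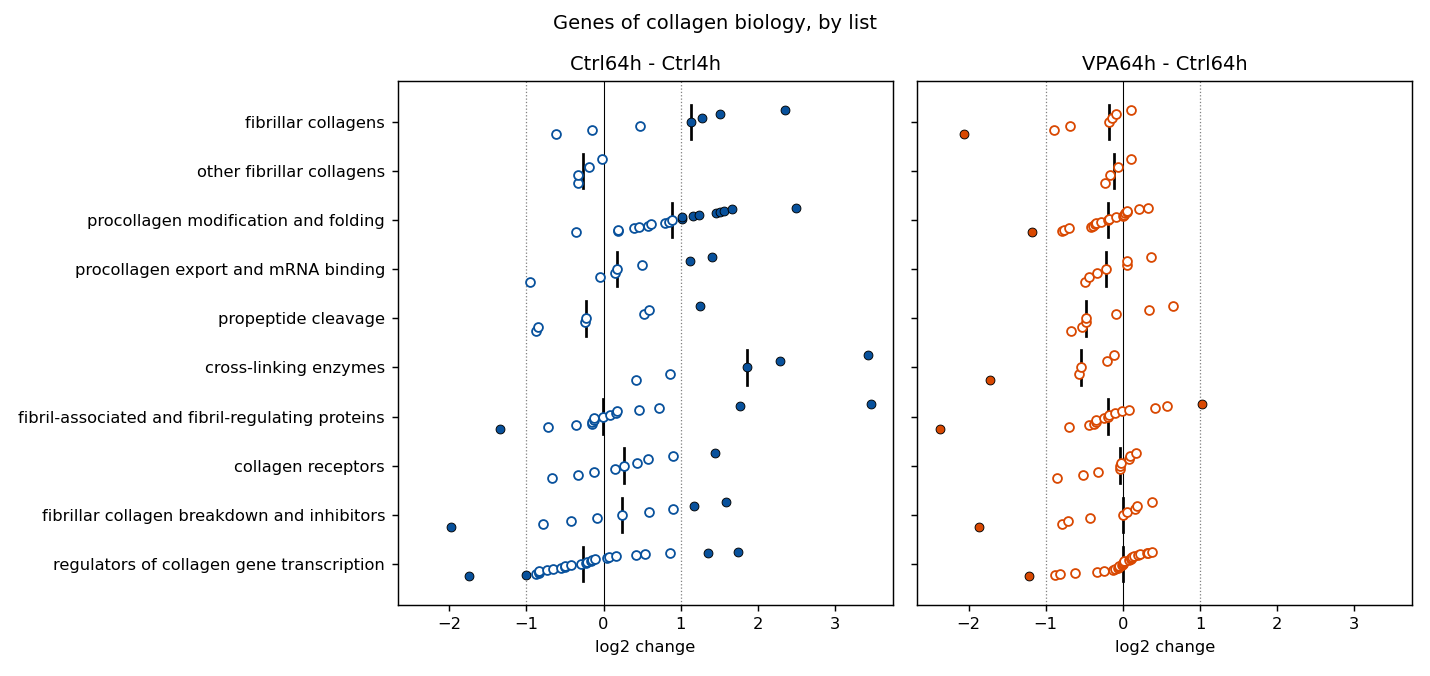
Log2 changes of the measured genes of the fibrillar collagens and of 9 lists of collagen biology between Ctrl4h and Ctrl64h (left) and with VPA at 64 h (right), each point a gene and each black bar a list's median. Filled points passed an adjusted p of 0.05 and a 2-fold change (dotted lines). In culture the modification list has a median of 0.89 and the cross-linking list one of 1.86, and with housekeeping centring all points on the left move by -0.69, which turns the medians of the export, receptor and breakdown lists below 0.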

How the data were processed

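Primary mouse HSC cultures were measured on 14 arrays in 5 groups (3 replicates each, 2 for Ctrl16h), assigned from the labels. The authors deposited log2 values made with RMA (background correction, quantile normalisation, probe summary), for which the paper names GeneSpring GX and the submitters' notes Affymetrix Expression Console. Quantile normalisation removes a change shared by most transcripts. The genome build was not given in the sources used here. The deposited log2 values were used unaltered. Of 35557 probe sets, 21789 carry 1 gene symbol, 1621 several and 12147 none. The 23410 with a symbol were tested with limma 3.58.1 (lmFit and eBayes under R 4.3.3). A single model held the 14 arrays, its residual degrees of freedom were 9 and its prior ones 6.52. All tests were two-sided, with Benjamini-Hochberg adjustment within a comparison, and both limits (adjusted p of 0.05, 2-fold) follow the methods of the paper. The fit was tested on simulated data. Arrays give no counts, so their number limits the precision.

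Differences between genes on 1 array were compared with the exact permutation test of scipy 1.17.1. Alternatives were another moderation, the one-way test that the paper names, no fold limit, other probe set filters, 3 centrings, the replicate number as a block over all arrays or, added after the data were seen, within each time, only the groups compared, and leaving out each array. Genes named are all members, from each list up to 4 called genes of largest change in culture and up to 4 with VPA at 64 h, and the 3 probe sets closest to a member. The members and lists were chosen with earlier results of these data known. Of 183 listed genes 8 had no probe set of their own and are not analysed here. Upstream sequences are those of RefSeq (GRCm38.p6), and 5 of 7 members matched by symbol.

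Replicate numbers in the labels were taken to pair VPA with control arrays of the same time: all 6 such pairs had correlated deviations from the group means (0.139 to 0.279, over 0.1 in each). The pairing is thus a finding from the data, and the labels name no shared isolation. Across times the same-numbered pairs were mixed, from -0.24 for Ctrl16h with VPA64h (replicate 1) to 0.23 for VPA4h with VPA64h (replicate 2). Whether those samples share an isolation is not settled.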

Additional observations from a re-analysis of the deposited data

Results flagged for a closer look

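The effect of VPA differed between 4 h and 64 h, by the test of the difference itself, for 3 of the 7 genes. At the same adjusted p 15.9% of all probe sets tested differed. The effect at 64 h minus that at 4 h was -1.88 for Col3a1 (limma adjusted p = 0.000213), -0.80 for Col1a1 (adjusted p = 0.0386) and -0.49 for Col5a1 (adjusted p = 0.0209). The result for Col1a1 missed the adjusted p in 13 of 21 alternatives (limma adjusted p up to 0.129). That for Col5a1 missed it in 4 of 21 (up to 0.275), and that for Col3a1 kept it in all 21. For Col3a1 the effect was -0.18 at 4 h and -2.06 at 64 h, and all 3 treated arrays at 64 h were below the controls while those at 4 h overlapped with them. For Col1a1 it was 0.12 at 4 h, where the arrays overlapped, and -0.69 at 64 h, where they did not. For Col5a1 it was 0.35 at 4 h, where all treated arrays were higher, and -0.14 at 64 h, where the arrays overlapped. Groups of 2 or 3 arrays are too small for a test of single outlying arrays.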

How the results depend on the processing

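No gene past both limits turned its direction under any alternative. Without the fold limit the numbers of the 7 genes higher and lower are given with the share of all probe sets that passed. They were 2 and 2 for Ctrl16h against Ctrl4h (20.1%) and 4 and 0 for Ctrl64h against Ctrl16h (43.1%). For Ctrl64h against Ctrl4h they were 5 and 1 (56.7%). With VPA they were 1 and 1 at 4 h (21.4%) and 0 and 3 at 64 h (24%). For VPA64h they were 3 and 1 against VPA4h (50.4%) and 4 and 2 against Ctrl4h (57%). For the difference of the VPA effects they were 0 and 3 (15.9%). Centred on housekeeping genes, which shifted every change by -0.69 between Ctrl4h and Ctrl64h and by -0.78 between Ctrl4h and VPA64h, 0 rose for Ctrl16h against Ctrl4h, 1 rose and 1 fell for Ctrl64h against Ctrl4h, 2 fell for VPA64h against VPA4h, and 0 rose and 2 fell for VPA64h against Ctrl4h. Centred on the Gapdh probe set, the numbers were 0 risen for Ctrl16h against Ctrl4h, 1 risen and 1 fallen for Ctrl64h against Ctrl4h, 2 fallen for VPA64h against Ctrl64h, and 0 risen and 2 fallen for VPA64h against Ctrl4h. The sign turned with housekeeping centring for Col5a1 in Ctrl64h (-0.22) and VPA64h (-0.45) and Col1a1 in VPA64h (-0.20) against Ctrl4h, and for Col1a1 (-0.24) and Col11a1 (-0.59) in VPA64h against VPA4h. With the Gapdh probe set it turned for Col5a1 in Ctrl64h (-0.083) and VPA64h (-0.35) and for Col1a1 in VPA64h (-0.095), against Ctrl4h. These follow from the shift of whole arrays. Of the 23410 probe sets tested, 6326 fell for Ctrl64h against Ctrl4h with housekeeping centring. There 5700 fell for VPA64h against VPA4h and 8868 for VPA64h against Ctrl4h. With Gapdh 3928 fell for Ctrl64h against Ctrl4h, 360 for VPA64h against Ctrl64h and 6194 for VPA64h against Ctrl4h.

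Leaving out 1 array gave 0 to 1 risen genes for Ctrl16h against Ctrl4h (0 without Ctrl4h replicate 2), 1 to 2 risen for VPA64h against Ctrl4h and 1 to 2 fallen for the difference of the VPA effects (both 2 without Ctrl4h replicate 1, when Col1a2 at 1.10 and Col1a1 at -1.02 were added), and changed no other of these counts. Within arrays, the change of Col1a1 minus Col1a2 with VPA at 4 h ran from -0.15 to 0.10, and that of Col5a1 minus Col5a3 with VPA at 64 h from -0.12 to 0.016. With the replicate number as a block 4 genes still rose for Ctrl64h against Ctrl4h and 1 fell for VPA64h against Ctrl64h, and no other count of called genes moved. A block within each time changed no call with VPA either. Across times a shared isolation is not settled: of all 26 same-numbered pairs, those of one time included, 13 had a correlation over 0.1 (range -0.24 to 0.28). A mean over several probe sets of a gene gives nothing new, since each gene had 1. With 2 or 3 arrays a group, the within-array comparisons cannot reach a p of 0.05.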
